A study of Arabidopsis thaliana with 23 samples.

Results

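H4ac peaks with summits outside genes were described. They were the peaks of the 8 H4ac lists whose summit, the position of highest signal, lay in no annotated gene or pseudogene of the Arabidopsis thaliana TAIR10 genome. Pericentromeric intervals of every chromosome were left out. They numbered 1559 of 105701 peaks on the chromosome arms, 1.47%, and overlapping peaks were merged into 476 regions, against 15478 regions made in the same way from peaks with summits within genes. On the arms, 32.1% of the bases lay outside genes. The series had 4 conditions, each with 2 independent biological replicates: WT (the DR5 line in the Col-0 background) and axe1-5 (a mutant of the histone deacetylase HDA6, with DR5 as its corresponding wild type), each mock treated or treated on plates with 50 µM methyl jasmonate (MeJA) for 3 h. Whole seedlings 12 days old were used, so no tissue or cell type can be told apart. Chromatin was precipitated with antibodies against histone H4 acetylated at 4 lysines (H4ac) and against H3 trimethylated at lysine 27 (H3K27me3), and set against input. The libraries measured no transcript, so the axe1-5 genotype was not checked here.

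Acetylation of the lysines of the H4 tail weakens the contact between histone and DNA and provides docking sites for bromodomain proteins. In plants, most H4ac lies over the transcription start site (TSS) and first nucleosomes of active genes, within the transcribed unit. HDA6, an RPD3-type histone deacetylase, removes acetyl groups and is known for the silencing of transposable elements, repeats and ribosomal RNA genes, together with DNA methylation. Jasmonate is perceived through COI1, which leads to degradation of the JAZ repressors and release of MYC transcription factors. H3K27me3, set by the Polycomb complex PRC2, marks repressed genes in facultative heterochromatin.

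The sequences at the summits are shown first, because many regions found in axe1-5 alone lay in sequence that occurs several times in the genome. All are reference sequence of TAIR10, 5′ to 3′. The first is the 300 bp window around the summit of 1 region of a tandem array, at chr4:11066809-11067108 between AT4G20580 and AT4G20590, which encode cysteine-rich repeat secretory-like proteins. It is printed for 12 regions, all in axe1-5 lists alone, that lay in copies of the same repeated sequence. Each of their windows had 12 or 13 identical copies elsewhere. The windows began at different places in the repeat, so they were not identical to one another.
AT4G20590 array window: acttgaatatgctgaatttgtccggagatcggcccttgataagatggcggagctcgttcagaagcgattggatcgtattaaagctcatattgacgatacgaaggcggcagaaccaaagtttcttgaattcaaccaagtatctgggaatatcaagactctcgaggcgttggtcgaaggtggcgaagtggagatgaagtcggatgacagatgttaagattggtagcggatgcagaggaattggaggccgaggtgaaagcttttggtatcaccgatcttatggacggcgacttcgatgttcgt
The next pair comes from different chromosomes. The window near CVP2, at chr1:1614159-1614458, and its copy near AT3G50808, at chr3:18886072-18886371 on the minus strand, agreed at 296 of 300 positions. Capitals mark the 4 positions that differ, A128T, T134C, T161C and C170G, counted from 1 at the 5′ end of the CVP2 window and written with the CVP2 base first.
CVP2 window: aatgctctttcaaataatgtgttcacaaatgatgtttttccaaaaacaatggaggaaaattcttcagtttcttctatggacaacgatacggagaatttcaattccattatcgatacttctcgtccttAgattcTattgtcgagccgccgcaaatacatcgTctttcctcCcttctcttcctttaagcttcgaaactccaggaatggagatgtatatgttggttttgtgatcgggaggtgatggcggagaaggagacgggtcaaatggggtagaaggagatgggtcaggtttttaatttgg
AT3G50808 window: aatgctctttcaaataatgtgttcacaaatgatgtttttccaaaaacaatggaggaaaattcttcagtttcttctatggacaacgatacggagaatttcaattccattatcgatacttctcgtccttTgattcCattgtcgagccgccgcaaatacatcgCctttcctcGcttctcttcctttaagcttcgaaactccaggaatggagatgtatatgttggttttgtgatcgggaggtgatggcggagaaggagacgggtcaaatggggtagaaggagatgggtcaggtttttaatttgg
The region with the highest enrichment among those in axe1-5 alone lay 111 bp upstream of AT5G45570, which encodes a Ulp1 protease family protein, at chr5:18471238-18471537.
AT5G45570 window: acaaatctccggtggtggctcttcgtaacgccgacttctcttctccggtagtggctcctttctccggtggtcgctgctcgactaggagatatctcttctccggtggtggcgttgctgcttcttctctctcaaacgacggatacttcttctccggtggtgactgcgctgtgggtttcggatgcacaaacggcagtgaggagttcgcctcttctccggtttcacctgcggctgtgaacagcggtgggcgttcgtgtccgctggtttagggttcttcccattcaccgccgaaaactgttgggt
A window at chr5:20596760-20597059, next to the RNA gene AT5G00635, is shown because it had an identical copy 33342 bp away. The copy lay in another region in axe1-5 alone, next to AT5G50715, whose own summit window was shifted against it.
AT5G00635 window: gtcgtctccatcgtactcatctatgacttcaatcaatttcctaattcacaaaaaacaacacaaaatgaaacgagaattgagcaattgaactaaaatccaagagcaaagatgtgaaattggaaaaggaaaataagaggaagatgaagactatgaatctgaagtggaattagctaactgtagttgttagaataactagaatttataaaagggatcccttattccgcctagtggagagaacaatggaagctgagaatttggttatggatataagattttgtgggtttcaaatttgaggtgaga
The region with the largest difference between genotypes among those present in every list had no copy elsewhere. It lay between AT4G01340 and AT4G01350, at chr4:557538-557837, and had an outside-gene summit in 2 of the 8 lists.
AT4G01350 window: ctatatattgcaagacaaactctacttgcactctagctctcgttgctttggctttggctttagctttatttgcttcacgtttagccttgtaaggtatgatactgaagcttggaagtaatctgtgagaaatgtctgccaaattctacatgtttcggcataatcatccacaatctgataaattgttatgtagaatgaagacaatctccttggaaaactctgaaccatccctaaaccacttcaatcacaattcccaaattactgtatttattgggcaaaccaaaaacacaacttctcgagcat
The last set is shown for the 6 most enriched of the 13 regions that had an outside-gene summit in all 8 lists and a telo-box in the window. Capitals mark the telo-box, AAACCCTA, searched on both strands of each window. They are the stretches near AT2G21655 (chr2:9262495-9262534), AT1G09647 (chr1:28784963-28785002), AT5G65810 (chr5:26337348-26337387), AT3G45252 (chr3:16587816-16587840, minus strand, cut at the window's edge), AT3G45250 (chr3:16584583-16584622) and AT1G76878 (chr1:28870768-28870807).
AT2G21655 telo-box: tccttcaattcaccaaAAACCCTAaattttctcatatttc
AT1G09647 telo-box: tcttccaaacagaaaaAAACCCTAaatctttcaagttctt
AT5G65810 telo-box: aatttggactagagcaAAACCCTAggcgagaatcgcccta
AT3G45252 telo-box: tAAACCCTAaggagtatatatggaa
AT3G45250 telo-box: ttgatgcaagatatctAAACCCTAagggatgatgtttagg
AT1G76878 telo-box: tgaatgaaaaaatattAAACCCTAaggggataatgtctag
The distances of the telo-box from the summit were 74, 1, 19, 145, 14 and 52 bp in the same order, and in the other 7 windows they were 135, 142, 136, 24, 143, 73 and 111 bp.

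The H4ac libraries kept 3235473 to 14717755 tags after duplicate removal, with the lowest numbers in the 2 untreated WT libraries. The lists held 11415 to 14733 arm peaks. Fold enrichment is the value MACS gave a peak over its input. It is not normalised between libraries, and a region without a listed peak is not shown to lack the mark.

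Most outside-gene summits lay close to genes. The distance from the summit to the nearest gene border had quartiles of 54.8, 270 and 684 bp over the 476 regions, with a highest value of 4763 bp. Upstream of the nearest TSS lay 352 regions (73.9%), 270 of them within 1000 bp, and 104 were within 100 bp of it. The rule leaves out positions within genes, so few places just downstream of a TSS could count. The shares of intergenic bases at these distances were not set beside these counts. Over 1000 bp from any gene border lay 72 regions (15.1%), and over 2000 bp, 22. Most peaks nevertheless reached into a gene, as 1210 of 1559 member peaks (77.6%) overlapped a gene. The other 349 peaks touched no gene and came from 115 regions. Of the bases between genes on the arms, 33.4% lay between divergent genes, 54.0% between tandem genes and 12.6% between convergent genes. The regions fell into these classes with shares of 26.7%, 56.3% and 17.0%.

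**Figure D1:**
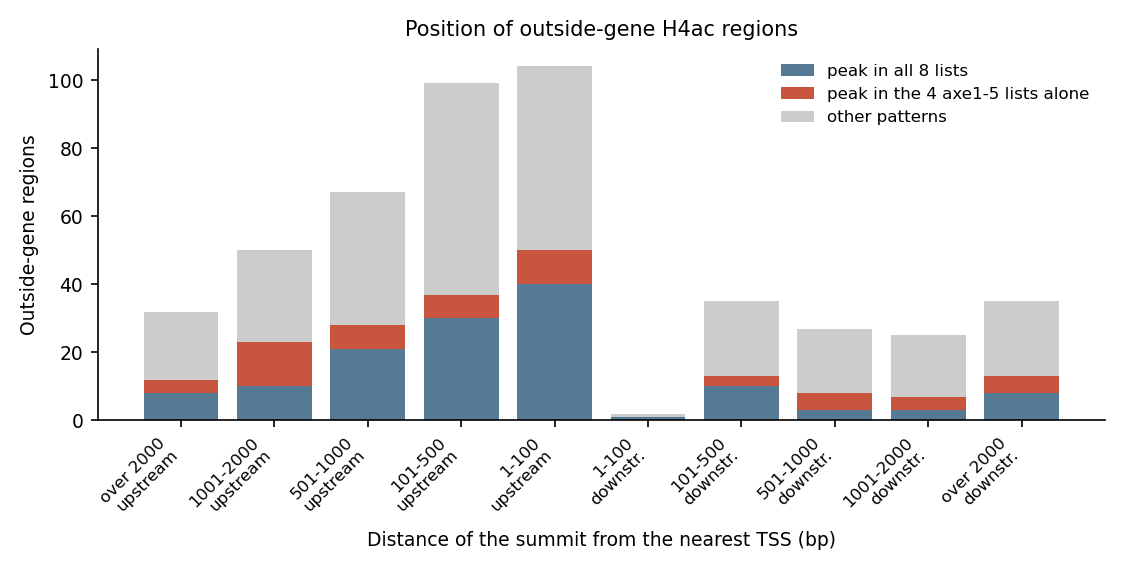
Number of outside-gene H4ac regions (y axis) by distance of the summit from the nearest TSS in bp (x axis), with regions that had a peak in all 8 lists in blue, in the 4 axe1-5 lists alone in red and all others in grey. The bars at 1 to 100 bp (104 regions) and 101 to 500 bp upstream (99 regions) are the tallest.

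The genes next to the regions were a mixed group with many short or non-coding loci. The nearest TSS belonged to a protein-coding gene for 275 regions (57.8%), a class that makes up 79.9% of arm genes. Pseudogenes were nearest for 71 regions (14.9%, against 4.43% of arm genes), genes of long non-coding RNAs for 63 (13.2%, against 9.73%), microRNA genes for 28 (5.88%, against 0.891%) and snoRNA genes for 19 (3.99%, against 0.86%). The rule that chose the summits depends on the annotated span of genes, and the shares of arm genes take no account of gene length. These shares are thus a description and show no preference of the regions. The nearest gene had an H4ac summit of its own in some list for 216 regions (45.4%), against 57.3% of all arm genes. Where an outside-gene summit was listed in all 8 libraries, this was so for 11 of 49 regions (22.4%). The choice of these 49 left out every region with only within-gene summits in some list. Their share is thus not comparable with the others.

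The position of the summit was not fixed between lists. The regions had a listed peak in 2357 combinations of region and list, and in 807 of these (34.2%) the only summits lay within a gene. An outside-gene summit was found in 1 list for 147 regions and in all 8 lists for 49 regions. For 247 regions, every list with a peak placed a summit outside genes. Their median distance to a gene border was 498 bp, against 84 bp for the other regions. At the border that defines the set, 273 member summits (17.5%) lay within 50 bp outside a gene, with a median fold enrichment of 7.47, and 344 within-gene summits (0.33%) lay within 50 bp inside, with a median of 6.74. Member summits over 1000 bp from a gene had a median fold enrichment of 8.23. These medians of fold enrichment pool the peaks of all 8 lists, which do not share a common scale. Each WT list held 17 to 27 of the summits over 1000 bp away, whereas each axe1-5 list, treated or not, held 45 to 59. The part of this imbalance in the medians was not tested.

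Outside-gene peaks had lower fold enrichment than within-gene peaks of the same list. In replicates 1 and 2, the median was 5.54 and 5.93 outside against 5.87 and 6.80 within genes in WT, and 6.94 and 7.65 against 9.17 and 9.97 in WT +MeJA. For axe1-5 it was 5.50 and 8.58 against 6.10 and 9.36, and for axe1-5 +MeJA 7.71 and 9.74 against 8.29 and 10.7. It was lower outside in 8 of 8 lists, 0.872-fold on average (mean log2 ratio −0.20, exact sign-flip permutation test over 8 lists, two-sided, p = 0.0078, the smallest possible). The ratio was 0.965-fold for peaks that scored 100 or more (log2 −0.051, exact sign-flip permutation p = 0.0234) and 0.931-fold with protein-coding genes only (log2 −0.102). Peak length was 0.992 times that within genes on average, lower in 4 of 8 lists (exact sign-flip permutation test, p = 0.695).

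The first comparison asked whether loss of HDA6 function or MeJA changed the share of listed H4ac summits that lay outside genes. The amount of H4ac outside genes was not measured. In replicates 1 and 2, outside-gene summits were 1.02% and 1.17% of arm summits in WT and 1.25% and 1.26% in WT +MeJA. They were 1.91% and 1.72% (axe1-5) and 1.76% and 1.60% (axe1-5 +MeJA), so that all 4 axe1-5 lists lay above all 4 WT lists. The mean was 1.75% ± 0.127 (SD, n = 4) in axe1-5 and 1.18% ± 0.110 (SD, n = 4) in WT, a difference of 0.569 percentage points (exact permutation test, two-sided, p = 0.0286, the smallest possible, and 0.0571 after Benjamini-Hochberg adjustment over 6 such tests). For MeJA against mock the means were 1.47% and 1.45%, and the difference of 0.0157 points was within the spread of the lists (exact permutation test, p = 0.971). Its sign changed when single libraries were left out, from −0.127 to 0.167 points. Depth differed between the lists, at 5927987 and 3235473 tags (WT), 8700467 and 9840934 (WT +MeJA), 7025483 and 7222121 (axe1-5) and 10569841 and 14717755 (axe1-5 +MeJA), and its part in the difference was not tested.

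**Figure D2:**
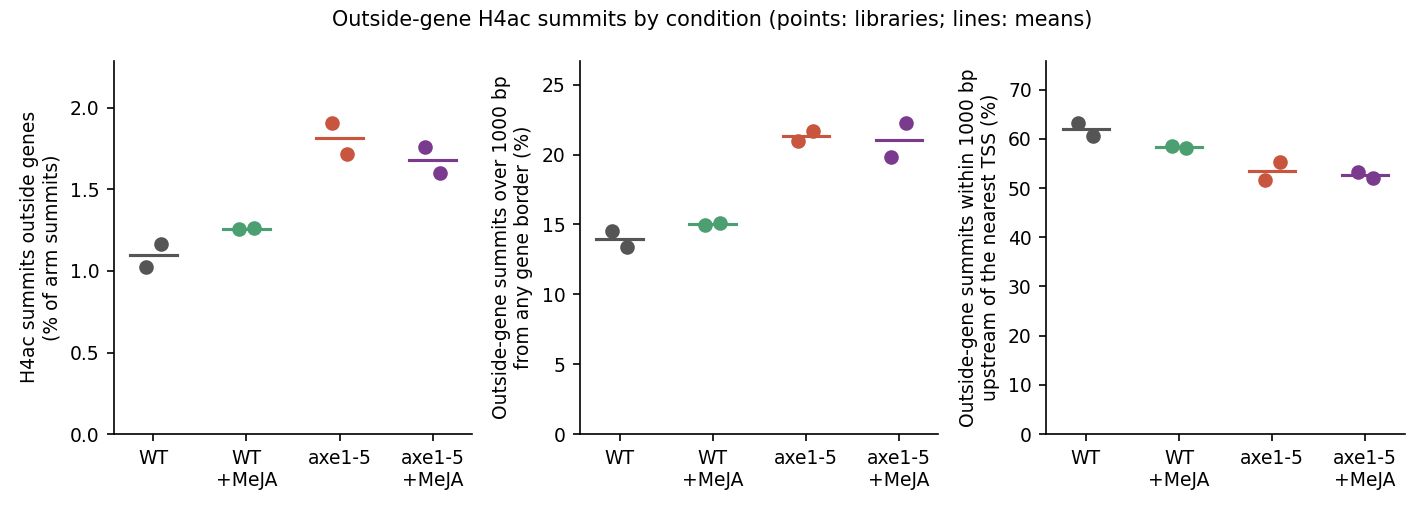
Share of arm summits outside genes (left), share of outside-gene summits over 1000 bp from any gene border (middle) and share within 1000 bp upstream of the nearest TSS (right), all in percent on the y axis, for each condition on the x axis. Points are libraries and lines are means of 2 libraries. In the left and middle plots all axe1-5 points are higher than all WT points, and in the right plot they are lower.

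The summits of axe1-5 also lay farther from genes. Of the outside-gene summits, the share over 1000 bp from a gene border was, in replicates 1 and 2, 14.5% and 13.4% (WT), 14.9% and 15.1% (WT +MeJA), 20.996% and 21.7% (axe1-5) and 19.8% and 22.3% (axe1-5 +MeJA). No axe1-5 list overlapped the range of WT. The means were 21.2% ± 1.05 (SD, n = 4) and 14.5% ± 0.773 (SD, n = 4), a difference of 6.72 points (exact permutation test, p = 0.0286, adjusted 0.0571). This comparison was not in the original plan. The share within 1000 bp upstream of the nearest TSS was 63.2% and 60.6% (WT), 58.6% and 58.1% (WT +MeJA), 51.6% and 55.2% (axe1-5) and 53.2% and 52.0% (axe1-5 +MeJA). It averaged 53.0% ± 1.61 in axe1-5 and 60.1% ± 2.33 in WT (SD, n = 4), lower by 7.15 points with no overlap (exact permutation test, p = 0.0286, adjusted 0.0571). Both differences were smaller over regions without a copy elsewhere in the genome. That over 1000 bp was 3.66 points there (17.3% against 13.7%, exact permutation p = 0.0286), and that upstream was −3.15 points, where the test no longer passed (exact permutation p = 0.114). For MeJA against mock, the shares over 1000 bp from a border differed by 0.385 points (exact permutation p = 0.8286) and those upstream by −2.18 points (exact permutation p = 0.486).

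Regions were then followed from condition to condition by whether a peak was listed. A region was counted as gained when both replicates of a condition had an overlapping H4ac peak and neither untreated WT library had one. In WT +MeJA, 39 of 476 outside-gene regions were gained (8.19%), against 6.31% of all arm regions. In axe1-5, 101 were gained (21.2%, against 6.63% of all), and in axe1-5 +MeJA, 132 (27.7%, against 12.2%). The untreated WT libraries, the shallowest, served all 3 comparisons. With a score of at least 100 required, 25 of 331 outside-gene regions (7.55%) were gained in WT +MeJA, below the 10.99% of all regions. With every list shortened to its 12065 highest-scoring peaks, the gains were 7 of 354 regions (1.98%, against 1.62% of all) in WT +MeJA, 57 (16.1%, against 3.89%) in axe1-5 and 89 (25.1%, against 9.07%) in axe1-5 +MeJA. Of the 101 regions gained in axe1-5, 88 (87.1%) were gained in axe1-5 +MeJA, where they were 66.7% of the gains. Losses, with a peak in both untreated WT libraries and in neither of the condition, were few. They numbered 2 in WT +MeJA (0.0752% of all regions were lost), 3 in axe1-5 (0.639% of all) and 11 in axe1-5 +MeJA (2.51% of all).

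**Figure D3:**
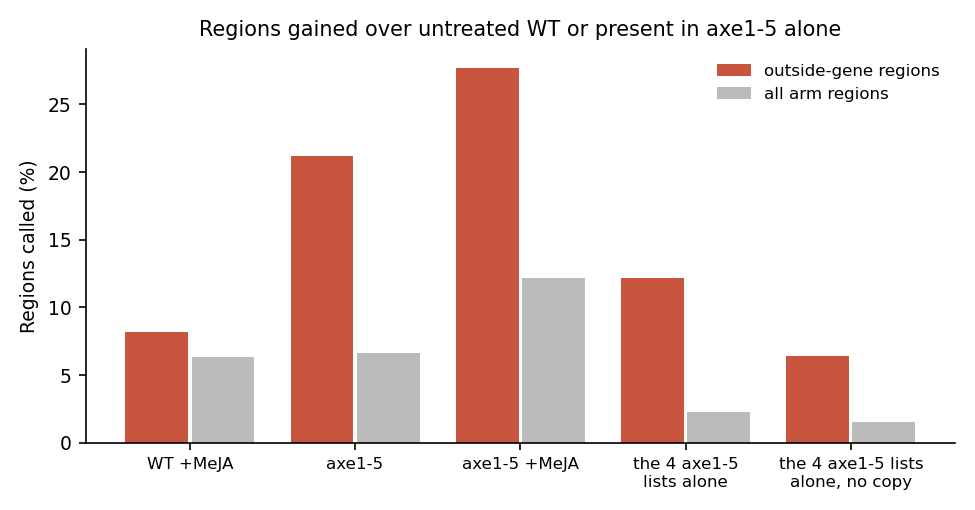
Percent of regions (y axis) gained over untreated WT in each condition, and percent with a peak in the 4 axe1-5 lists and no WT list, for outside-gene regions (red) and all arm regions (grey). The last pair of bars counts regions whose 300 bp summit window had no copy elsewhere. The outside-gene bar is 21.2% against 6.63% in axe1-5 and 8.19% against 6.31% in WT +MeJA.

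Over all 8 lists, 134 outside-gene regions (28.2%) had a peak in every list, against 53.3% of all arm regions. A peak in the 4 axe1-5 lists and in no WT list was found for 58 regions (12.2%), against 2.3% of all arm regions. The opposite pattern, WT alone, held for 1 region, upstream of the FBD-like domain gene AT3G53550 (0.244% of all regions had it), with fold enrichments of only 3.21 to 5.63. The pattern of the 4 MeJA lists alone held for 2 regions (0.313% of all), at MIR864 and 4 bp upstream of AT2G34240. The region at MIR864, a microRNA gene, had fold enrichments of 5.24 and 5.06 in WT +MeJA and 5.79 and 7.49 in axe1-5 +MeJA.

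The 58 regions in axe1-5 alone lay farther from genes than the 134 in every list. Their median distance to a gene border was 544.5 bp against 169.5 bp, and 19 of 58 (32.8%) lay over 1000 bp from a gene, against 8.96%. A pseudogene was nearest for 12 of 58 (20.7%), against 11.9%, while no microRNA or snoRNA gene was. Only 49 of the 134 had an outside-gene summit in all 8 lists, and these 49 were closer to the regions in axe1-5 alone. Their median distance to a gene border was 472 bp, and 10 (20.4%) lay over 1000 bp from a gene. A pseudogene was nearest for 8 of the 49 (16.3%), a microRNA gene for 1 and a snoRNA gene for 0. As the list of peaks chose these groups, the values are a description without a test.

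Many of the regions in axe1-5 alone had sequence that recurs. A window was counted as having a copy when at least 150 of its 300 bp matched another place in the nuclear genome at 80% identity or more. This was so for 39 of 58 regions in axe1-5 alone (67.2%), 55 of 134 in every list (41.0%), 6 of 39 gained in WT +MeJA (15.4%) and 178 of all 476 (37.4%). Among within-gene regions it was 15.8%, with 13.6% of those in every list and 39.5% of the 309 in axe1-5 alone. Near-identical copies, of 98% identity over at least 250 bp, were found for 22 of the 58 (37.9%) and for 13 of the 134 (9.70%). Of the 49 regions with an outside-gene summit in all 8 lists, 22 (44.9%) had a copy and 10 (20.4%) a near-identical one. For 23 of the 39 regions in axe1-5 alone with a copy, the place of the best copy also had a peak in the 4 axe1-5 lists and in no WT list. The reads were 50 bases long, so reads from identical windows cannot be assigned to 1 of them, and how the aligner placed them is not given in the sources used here. Among the 298 outside-gene regions without a copy, 19 (6.38%) had a peak in axe1-5 alone, against 1.55% of all arm regions without a copy. The share of arm summits outside genes over regions without a copy was 1.13% in axe1-5 and 0.891% in WT (exact permutation p = 0.0286). Transposable elements were not annotated in the reference used here, and the overlap of the copies with them was not tested.

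**Figure D4:**
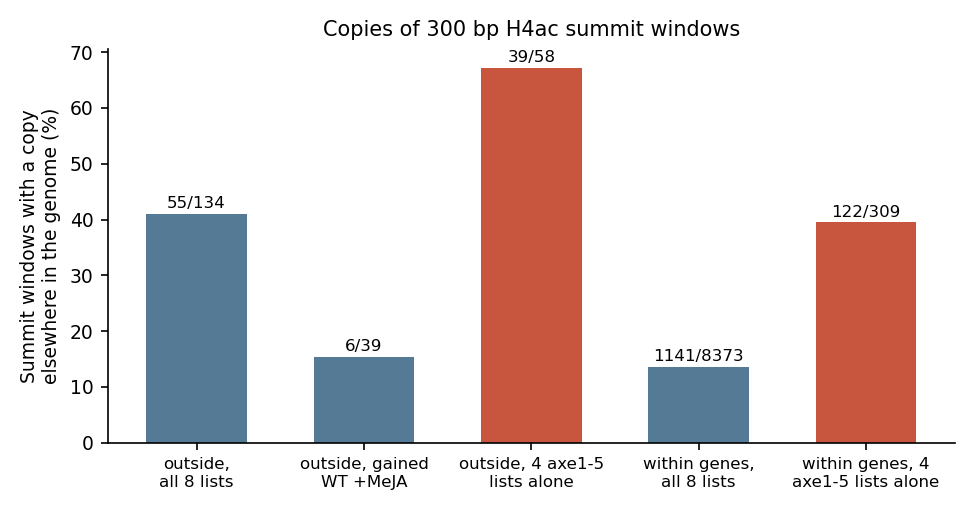
Percent of regions whose 300 bp summit window had a copy elsewhere in the nuclear genome (y axis), for outside-gene and within-gene regions by the lists in which they had a peak (x axis), with counts above the bars. The share is highest, 39 of 58, for outside-gene regions in the 4 axe1-5 lists alone (red).

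The largest group with shared sequence was the tandem array on chromosome 4, whose window is printed above. It held 12 of the 58 regions between 11049879 and 11089698, with summits 3015 to 5160 bp apart (median 3250 bp). The span holds 17 protein-coding genes for cysteine-rich repeat secretory-like or receptor-like proteins, 7 of them with DUF26 in their description. Each window had 15 or 16 copies, 12 or 13 of them identical. Fold enrichments of the 12 regions were 2.54 to 3.57 and 4.88 to 6.63 in the axe1-5 replicates, 4.69 to 5.87 and 7.07 to 8.22 in axe1-5 +MeJA, and no peak was listed in WT. They do not count as 12 independent observations. Without the array, 46 regions in axe1-5 alone remained of 464 (9.91%), of which 27 (58.7%) had a copy, with a median distance to a gene border of 518.5 bp.

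Other members of the axe1-5 group shared sequence over longer distances. The region near CVP2, which encodes an inositol polyphosphate 5-phosphatase of vein patterning, had fold enrichments of 5.52 and 10.6 (axe1-5) and 8.69 and 11.49 (axe1-5 +MeJA). Its copy near AT3G50808, a PLATZ transcription factor gene, had 7.22, 8.82, 7.96 and 10.55 in the same order. Another region of this family, near AT1G54445, had 6.02, 8.68, 6.67 and 9.65 and was 97% identical to the CVP2 window. The region upstream of the pseudogene AT1G30784 had 11.56 and 15.29 (axe1-5) and 15.18 and 15.55 (axe1-5 +MeJA). AT1G30784 is annotated as a pseudogene of AT5G01080, a beta-galactosidase related gene, and the region near AT5G01080 was 99% identical to it with 6.41, 9.30, 7.61 and 9.36. At SWEET10, of the SWEET family of sugar transporters, the values were 8.93, 12.68, 9.58 and 11.95. All of these regions were without a listed peak in the 4 WT lists.

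The 3 regions with the highest mean enrichment among the gains of axe1-5, which were also those of axe1-5 +MeJA, lay at AT5G45570, AT1G30784 and AT5G00635. At AT5G45570 the fold enrichment was 13.24 and 18.53 (axe1-5) and 14.94 and 16.8 (axe1-5 +MeJA). At AT5G00635 it was 9.14 and 15.92 (axe1-5) and 9.23 and 13.24 (axe1-5 +MeJA). The window at AT5G45570 had 2 copies, the best of 99.3% identity and with a peak in the 4 axe1-5 lists and no WT list. The 3 highest gains of WT +MeJA lay near AT2G22807, which encodes a defensin-like protein, AT3G44635 and the long non-coding RNA gene AT5G03025. The region 908 bp upstream of AT2G22807 had 8.20 and 10.11 (WT +MeJA), 7.58 and 12.33 (axe1-5) and 9.0 and 12.01 (axe1-5 +MeJA). AT3G44635, 2309 bp from any gene, had 6.28 and 6.37, 7.93 and 9.95, and 11.58 and 13.49 in the same order. AT5G03025 had 6.88 and 8.33 in WT +MeJA, but in axe1-5 and axe1-5 +MeJA only replicate 1 had a peak, with 8.64 and 8.99. So none of the 3 gains in WT +MeJA was limited to MeJA-treated lists.

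Among the 49 regions with an outside-gene summit in all 8 lists, the mean fold enrichment ranged from 4.84 to 18.7, with a median of 9.45. The 10 with an outside-gene summit in all 8 lists and the highest mean fold enrichment lay near AT1G24879, AT2G21655, AT5G04880, AT1G31990, MIR5995b, FAF3, AT1G13143, HKL1, AT3G05155 and AT2G23690. The highest, at chr1:8781254-8785677 next to the pseudogene AT1G24879, had fold enrichments of 16.77 and 21.15 (WT), 17.86 and 22.42 (WT +MeJA), 13.62 and 20.13 (axe1-5) and 16.18 and 21.7 (axe1-5 +MeJA). All 4 conditions overlapped there. The window of this region had 4 copies elsewhere, all identical, and those near AT2G21655, FAF3 and AT2G23690 had 2, 1 and 1. The region 949 bp upstream of AT2G21655, an ECA1 gametogenesis family gene, had 9.83 and 11.15, 14.94 and 17.37, 12.71 and 19.67, and 18.35 and 18.25 in the same order, lowest in untreated WT. FAF3, of a family that regulates shoot meristem size, had its region 1840 bp from the nearest border, with 8.90 and 9.91, 13.67 and 14.63, 12.44 and 14.32, and 15.72 and 18.82. At HKL1, encoding a hexokinase-like protein, the values were 9.28 and 9.59, 13.19 and 14.52, 6.31 and 14.6, and 10.96 and 11.97, and the axe1-5 replicates stood far apart. The other 6 regions had values between 7.89 and 18.04. In 9 of the 10, AT1G24879 excepted, both untreated WT values were below both of WT +MeJA, as the median enrichment of whole lists also was.

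**Figure D5:**
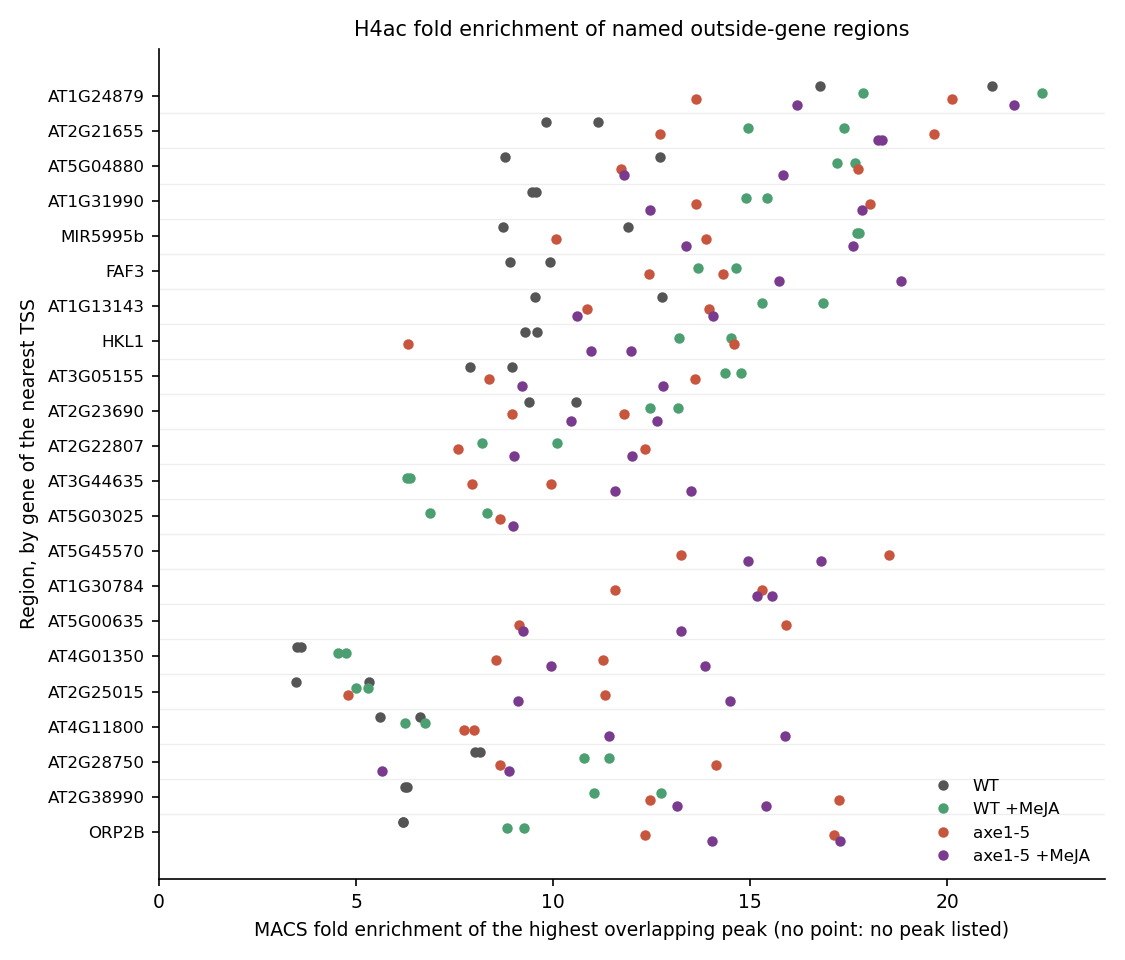
MACS fold enrichment of H4ac (x axis) at named outside-gene regions (y axis, by the gene of the nearest TSS), with 1 point per library coloured by condition and no point where no peak was listed. At AT5G45570, AT1G30784 and AT5G00635 only axe1-5 libraries have points, and at AT4G01350 all axe1-5 points lie above all WT points.

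Fold enrichment was compared between conditions for the 134 outside-gene regions with a peak in every list, among 8507 such regions in all, with log2 values centred on the median of each library. Of the 134, 49 had an outside-gene summit in all 8 lists. For the others, the values compared include those of peaks with summits within genes. For axe1-5 against WT, 7 outside-gene regions changed, all higher (5.22%, against 0.811% of all regions tested, limma with Benjamini-Hochberg adjustment). For axe1-5 +MeJA against WT +MeJA, 11 changed, all higher (8.21%, against 2.23%). For axe1-5 +MeJA against axe1-5, 1 changed, lower (0.746%, against 0.141%). For WT +MeJA against WT, limma called 0 (against 0.0235% of all), with 17 of 134 (12.7%) at an unadjusted p under 0.05, against 8.66% of all. The calls depend on centring, without which they numbered 1, 0, 0 and 16 in the same order, and the last 16 (11.9%) were all higher, against 16.0% of all regions. The median difference of all regions without centring was 0.30, −0.10, 0.27 and 0.65 on the log2 scale. Single libraries also moved the counts. The 7 calls of axe1-5 against WT became 0 without axe1-5 replicate 1, 1 without axe1-5 replicate 2 and 2 without WT replicate 2. The 11 calls under MeJA became 5 or 7 without WT +MeJA replicate 1 or 2, 3 or 6 without axe1-5 +MeJA replicate 1 or 2, and 20 or 23 without WT replicate 1 or 2. The single call of axe1-5 +MeJA against axe1-5 became 0 when any 1 of the 4 axe1-5 libraries was left out, and 3 or 5 without WT replicate 1 or 2.

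The region between AT4G01340 and AT4G01350, a gene for a cysteine- and histidine-rich C1 domain protein, had the largest change. An outside-gene summit was listed there in only 2 of the 8 lists, and the other lists had only summits within a gene. Its fold enrichment was 3.49 and 3.61 (WT), 4.55 and 4.73 (WT +MeJA), 8.54 and 11.27 (axe1-5) and 9.94 and 13.85 (axe1-5 +MeJA). Every axe1-5 value was above every WT value. The centred log2 difference was 1.16 ± 0.196 (SE) without MeJA (limma, adjusted p = 0.000495) and 1.43 ± 0.196 with MeJA (limma, adjusted p = 6.21e-06). The region upstream of ORP2B, which encodes an oxysterol-binding protein-related protein, had 6.18 and 6.18 (WT), 9.25 and 8.84 (WT +MeJA), 12.34 and 17.13 (axe1-5) and 17.29 and 14.04 (axe1-5 +MeJA), again without overlap of the genotypes. Its log2 difference was 0.93 ± 0.198 without MeJA (limma, adjusted p = 0.00715) and 0.88 with MeJA (limma, adjusted p = 0.00607). The ORP2B region had an outside-gene summit in 4 of the 8 lists. Its window had 1 copy, of 95.3% identity on chromosome 2, with a peak in the 4 axe1-5 lists and no WT list.

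The other regions named by this rule were less uniform. An outside-gene summit was listed in 4 lists at AT2G38990 and AT4G11800, in 3 at AT2G25015 and in 2 at AT2G28750. The region 20 bp upstream of AT2G38990 had 6.28 and 6.24 (WT), 11.04 and 12.73 (WT +MeJA), 12.45 and 17.26 (axe1-5) and 15.41 and 13.15 (axe1-5 +MeJA). It changed without MeJA (log2 difference 0.92, limma, adjusted p = 0.0067), and its difference of 0.36 with MeJA did not pass (limma, adjusted p = 0.387). At AT2G25015 the values were 3.47 and 5.33, 5.00 and 5.31, 4.80 and 11.31, and 9.12 and 14.5, with a log2 difference of 1.25 between the genotypes under MeJA (limma, adjusted p = 0.000225). Upstream of AT4G11800, a calcineurin-like phosphoesterase gene, they were 5.60 and 6.61, 6.23 and 6.74, 8.00 and 7.73, and 15.88 and 11.41, with a log2 difference of 1.15 under MeJA (limma, adjusted p = 0.000815). The windows at AT2G25015, AT4G11800 and AT2G28750 had 3, 2 and 1 copies elsewhere. The best copy of the AT4G11800 window was 97.0% identical, with a peak in the 4 axe1-5 lists and no WT list. The single lower call lay between AT2G28750 and the histone H4 gene AT2G28740, with 8.01 and 8.14 (WT), 10.78 and 11.41 (WT +MeJA), 8.64 and 14.13 (axe1-5) and 5.65 and 8.87 (axe1-5 +MeJA). Its log2 difference of −0.92 between axe1-5 +MeJA and axe1-5 passed the test (limma, adjusted p = 0.0218) although the values of these conditions overlapped.

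Of the 22 regions over 2000 bp from a gene border, 4 (18.2%) had an outside-gene summit in all 8 lists, against 10.3% of all 476. The farthest of all, 4763 bp upstream of CLE4, which encodes a CLAVATA3-related signalling peptide, had a peak in axe1-5 replicate 1 (4.95) and in both axe1-5 +MeJA libraries (11.99 and 9.85) and none elsewhere. The window near CLE4 had 3 copies, the best of 97.0% identity and with a peak in the 4 axe1-5 lists and no WT list. A region near AT1G32045 had peaks in 7 lists, with 5.66 in WT replicate 1, 11.49 and 7.91 (WT +MeJA), 7.27 and 9.27 (axe1-5) and 10.3 and 12.14 (axe1-5 +MeJA). The region near AT4G12520, a lipid-transfer protein family gene, was listed in 4 libraries, 1 of each condition, with 6.17 (WT), 14.37 (WT +MeJA), 7.37 (axe1-5) and 10.01 (axe1-5 +MeJA). Its window had 2 copies elsewhere. A region near the pseudogene AT3G26530 had peaks only in untreated WT, with 3.27 and 4.55.

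Jasmonate genes were looked up among the neighbours of these regions. Of 31 jasmonate biosynthesis and signalling genes on the arms, 2 neighboured an outside-gene region (6.45%, against 2.45% of arm protein-coding genes). MYC2, a transcription factor of the jasmonate response, shared a 9123 bp gap with AT1G32650 that held a pair of regions. The first, 4356 bp from the nearest gene, had a peak in replicate 2 of WT +MeJA (4.25) and of axe1-5 +MeJA (6.78). The second, 2685 bp from a gene, had 7.79 in axe1-5 +MeJA replicate 2 alone. The windows of this pair had 13 and 3 copies elsewhere, in the same order. JAZ9, a repressor of MYC2 named TIFY7 in the annotation, had a region 651 bp from its border with a single peak, 5.59 in WT +MeJA replicate 2. All these peaks were thus in MeJA-treated replicate 2 lists, and none was found in both replicates of a condition. Of the other groups, ribosomal protein genes neighboured regions at 4 of 328 loci, MYB genes at 6 of 167, heat shock genes at 3 of 137, bHLH genes at 2 of 131, NAC genes at 2 of 115 and histone genes at 1 of 51. No WRKY, chlorophyll a/b-binding or ethylene response factor gene was a neighbour, of 69, 12 and 30.

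H3K27me3 was listed more often over outside-gene H4ac regions than over within-gene ones. The shares overlapped were 5.46% against 5.14% and 14.5% against 10.996% in WT, and 3.57% against 3.08% in WT +MeJA, for which only replicate 2 was used. They were 30.3% against 20.03% and 11.8% against 7.16% in axe1-5, and 24.8% against 13.1% and 33.6% against 19.6% in axe1-5 +MeJA. The outside-gene share was higher in 7 of 7 lists, by 6.41 points on average (exact sign-flip permutation test over 7 lists, p = 0.0156, the smallest possible). With only H3K27me3 peaks of a score of at least 100, the difference was 4.93 points and the test no longer passed (exact permutation p = 0.125). The 134 outside-gene regions with an H4ac peak in every list did not show this excess throughout when set against all within-gene regions. The shares of within-gene regions with a peak in every H4ac list were not set beside them. The shares of the 134 were 3.73% and 9.70% in WT and 1.49% in WT +MeJA, below those of all within-gene regions. In axe1-5 they were 23.9% and 8.21%, above them, and in axe1-5 +MeJA 12.7%, below, and 20.1%, above. Median region length was 1880 bp outside and 1949 bp within genes.

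The regions in axe1-5 alone were overlapped by H3K27me3 in some list for 33 of 58 (56.9%), and those in every H4ac list for 34 of 134 (25.4%). Where an outside-gene H4ac summit was listed in all 8 libraries, this was so for 19 of 49 (38.8%). By list, 4 and 8 of the 58 were overlapped in WT and 1 in WT +MeJA, against 18 and 17 (axe1-5) and 29 and 32 (axe1-5 +MeJA). The H3K27me3 libraries kept 577986 to 8879066 tags, and the part of depth in these counts was not tested. Without the array, the share in some list was 45.7%. The marks come from whole seedlings, and presence on the same molecule was not tested. H3K27me3 was listed in all 7 lists over 9 of 476 outside-gene regions and 331 of 15478 within-gene regions. Of the 9, the naming rule gave those at AT4G19770, a chitinase-like glycosyl hydrolase gene, AT1G78635 and the zinc transporter gene ZIP5. At AT4G19770, H4ac was listed only in axe1-5 +MeJA, with 4.93 and 6.56. At AT1G78635 it was listed only in WT +MeJA replicate 2 (6.85) and axe1-5 replicate 1 (5.15). At ZIP5, H4ac was 6.47 and 6.2 (WT +MeJA), 5.07 and 5.85 (axe1-5) and 4.58 and 7.33 (axe1-5 +MeJA), with no peak in untreated WT.

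The base composition and short motifs of the 300 bp windows were described last. The median GC content was 39.0% over all outside-gene windows, 42.3% in those of axe1-5 alone and 43.7% in within-gene windows. The telo-box, AAACCCTA on either strand, was found in 13.4% of outside-gene windows, 11.5% of within-gene windows and 6.24% of windows around the TSS of arm genes. Among the 49 regions with an outside-gene summit in all 8 lists it was found in 13 (26.5%), and among the regions in axe1-5 alone in 4 of 58 (6.90%). The TATA box, TATAAA, was in 18.9% of outside-gene windows against 50.4% of TSS windows, and the site II element, TGGGCC, in 1.89% against 14.3%. The G-box, CACGTG, the sequence that MYC2 can bind, was in 1.89% of outside-gene windows, 3.64% of within-gene windows and 7.06% of TSS windows. For the W-box, TTGACC or TTGACT, the shares were 22.9%, 24.03% and 31.7%. All motifs were searched on both strands, and a match is a description of the letters only.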

How the data were processed

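The 8 H4ac and 7 H3K27me3 peak lists were used as deposited, and the input libraries were not analysed here. According to the study's methods, the authors trimmed single-end 50 base reads with Trimmomatic 0.36.5, aligned them to TAIR10 with Bowtie at default settings and called peaks in each library against an input with MACS 1.4.2. The inputs were mostly shared by both marks. Per the file headers, the tag count of a peak was made by the authors after removal of duplicate positions. The deposited score is −log10 of the MACS p-value, times 10, the deposited fold enrichment is a ratio to the level modelled from input, and the FDR is deposited in percent.

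Genes and pseudogenes (37899) came from the TAIR10.1 annotation, whose nuclear sequence is that of TAIR10. Summits in pericentromeres were left out (chromosome 1, 12.5 to 17.0 Mb, 2, 1.5 to 6.5, 3, 11.0 to 16.0, 4, 1.5 to 6.0, 5, 9.5 to 14.5). Regions were merged over lists, and a region took the highest fold enrichment of any overlapping peak, whatever its summit, in each list. Its position is that of its highest outside-gene peak.

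Shares were compared between libraries with exact permutation tests and between classes with exact sign-flip tests. Centred log2 fold enrichments were compared with limma 3.58.1 in R 4.3.3 across all regions present in every list. Copies were searched with BLAST 2.17.0. Scripts used Python 3.11.15 with scipy 1.17.1, pandas 2.3.3 and numpy 2.4.6, and the tests were tried on simulated data. Peak counts rest on 3235473 to 14717755 tags per H4ac library.

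Regions named were the 10 listed outside genes most often, the 3 highest gains of each condition, the 5 farthest from genes, those next to jasmonate genes, up to 3 per limma contrast and the 3 with most H3K27me3 lists. SWEET10, CVP2 and its relatives, AT3G53550, MIR864 and AT2G34240 were named after their values were seen. Members, lists and tests were chosen with earlier results of these data known. The alternatives included an FDR of at most 5%, a score of at least 100, lists of equal length, protein-coding genes only, whole chromosomes, the peak midpoint, other windows and merging distances, no centring, a replicate block and leaving out each library. Regions without a copy were added after seeing the data. The count of regions in axe1-5 alone and the test of the share over 1000 bp from a gene border were not in the original plan either. The same holds for their alternatives.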

Additional observations from a re-analysis of the deposited data

Results flagged for a closer look

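The effect of MeJA on the share of arm summits outside genes had opposite directions in the genotypes. By replicate number, the share was higher with MeJA by 0.229 and 0.0965 percentage points in WT and changed by −0.148 and −0.115 points in axe1-5. The difference between the effects was −0.294 points and did not pass (exact permutation test, 36 divisions within genotypes, p = 0.111). The untreated WT libraries were also the shallowest, and the part of depth in this difference was not tested. Of 11 groups of libraries examined for a value far from the others, 0 had one, where chance gives about 1 in 20.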

How the results depend on the processing

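Of 189 results recomputed under another choice, 136 kept their direction and their side of the threshold or stayed within 1.5 times, 36 counts moved by more, 7 were weaker and 10 had the opposite sign. The share outside genes in axe1-5 against WT kept its sign, and kept its call except with a replicate block. The difference was 0.515 to 0.617 points with 1 library left out and 0.239 points without copies, against 0.569 in the main setting. The share over 1000 bp from a gene border differed by 6.35 to 7.17 points in the same way, and by 3.66 points without copies.

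Those that turned all concerned differences within the spread of the lists. For MeJA against mock, the share outside genes was −0.0327 points with a score of at least 100, −0.0777 with lists of equal length, −0.0335 with whole chromosomes and −0.127 to 0.167 with 1 library left out, and the upstream share was 0.261 with lists of equal length. The log2 length ratio was 0.0621 with a score of at least 100 and 0.0384 with protein-coding genes only.

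The upstream share in axe1-5 against WT was −3.35 points with protein-coding genes only (exact permutation p = 0.0571), −3.15 without copies (exact permutation p = 0.114) and −2.54 in a 2000 bp window (exact permutation p = 0.0571). The H3K27me3 difference was 4.93 points with a score of at least 100 (exact permutation p = 0.125). With each library centred on its median, deviations of same-numbered libraries correlated at −0.053 to 0.017 over 6 pairs. The centring removes any shift of a whole library, so this check cannot tell whether same-numbered libraries share one. The median fold enrichment of within-gene peaks was higher in replicate 2 than in replicate 1 in every condition. With a replicate block, the differences of 0.569, −7.15 and 6.72 points had an exact permutation p of 0.0556, the smallest it allows. The block changed the calls of none of the MeJA contrasts, and the limma calls were 0, 7, 1 and 10.

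Regions numbered 2507 by peak midpoint and 1031 with protein-coding genes only. Gains in WT +MeJA were 25 with a score of at least 100 (7.55%, against 10.99% of all regions), 7 with lists of equal length (1.98%, against 1.62%), and 81 and 96 from replicate 1 or 2 alone (17.02% and 20.2%, against 13.98% and 14.2%). In axe1-5 they were 63 (19.03%, against 6.13%), 57 (16.1%, against 3.89%), 180 from replicate 1 alone (37.8%, against 17.7%) and 47 without copies (15.8%, against 5.47%), and in axe1-5 +MeJA 73 without copies (24.5%, against 9.85%). Without copies, 19 regions were in axe1-5 alone. For WT +MeJA against WT, axe1-5 against WT, axe1-5 +MeJA against axe1-5 and axe1-5 +MeJA against WT +MeJA, limma called 16, 1, 0 and 0 regions without centring, 1, 4, 0 and 5 with a score of at least 100, and 0 to 1, 0 to 8, 0 to 5 and 3 to 23 with 1 library left out, where a lone library is assumed to vary like the others.

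With 4 lists per genotype no exact p below 0.0286 is possible, and with 2 per condition none below 0.33. The log2 ratio of fold enrichment outside over within genes was −0.051 with a score of at least 100 and −0.102 with protein-coding genes only. The cause of these shifts was not tested.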

Other observations

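Among the 11 outside-gene regions lost in axe1-5 +MeJA was one 2462 bp upstream of STP1, which encodes a hexose transporter of the plasma membrane. It was chosen after its values were seen. Its H4ac fold enrichment was 6.08 and 7.71 (WT), 12.45 and 13.88 (WT +MeJA) and 8.50 and 9.75 (axe1-5), and no peak was listed in either axe1-5 +MeJA library, which were the deepest. The region at MIR173, a microRNA gene that starts the production of trans-acting siRNAs, had the same pattern, with 7.35 and 10.13, 8.33 and 12.25, and 8.20 and 8.60, and no peak in axe1-5 +MeJA.

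The 19 regions in axe1-5 alone without a copy included places next to ABCG11, which encodes an exporter of cuticular lipids, at a mean fold enrichment of 8.13 over the 4 axe1-5 lists. A region near the calcium-dependent protein kinase gene CPK17 had 6.15, and a region near CRK33, a cysteine-rich receptor-like kinase gene, 9.55. The highest was near AT5G36900, with 11.4. These were also chosen after their values were seen.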
